A study of Hapsidospora chrysogena with 9 samples.

Results

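Of the genes measured in Hapsidospora chrysogena (synonym Acremonium chrysogenum), a mould grown for the antibiotic cephalosporin C, 155 of 8899 had lower mycelial transcript levels in a strain that overexpresses AcmybA, while a strain without AcmybA stayed close to wild type on average. AcmybA encodes a Myb transcription factor. The study asked how this factor acts on conidiation and cephalosporin production. Polyadenylated RNA was sequenced from AcmybA overexpression (labelled AcmybAOE), AcmybA knockout (labelled ∆AcmybA) and wild-type mycelium at 48, 72 and 96 h in LPE medium, with 1 library for each strain and time and 9 libraries in all. No library was repeated, so a value at 1 strain and time has no replicate check. The promoter that drives AcmybA in the overexpression strain and the number of clones behind each mutant are not stated in the labels.

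Myb proteins bind DNA through helix-turn-helix repeats and can raise or lower the transcription of their target genes. In filamentous fungi, members of the family are known to act in the formation of conidia, the asexual spores, and in secondary metabolism, the branch of metabolism that yields compounds such as β-lactam antibiotics. Cephalosporin C is one of these, and in this fungus its formation accompanies the shift of hyphae into swollen fragments called arthrospores. The table pairs each value with a protein identifier and no gene name, so no function is given here to any of the 155 genes, and the level of AcmybA itself was not checked.

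The 155 genes were chosen on the measured values. Levels were taken as log2(FPKM + 1), where FPKM is a fragment number scaled by transcript length and library depth, and every log2 difference below is on that scale, which understates the change of low genes. A gene was taken when its mean over the 9 libraries was at least 10 FPKM, its overexpression mean was lower than its wild-type mean by at least 1, its knockout mean was within 0.5 of its wild-type mean, and its overexpression value was below those of both other strains at 48, 72 and 96 h. The strain differences of these genes are therefore descriptions of the choice, and no test is given for them. Of the 7360 genes with a mean of at least 10 FPKM, 437 (5.94%) were at least 1 lower in overexpression than in wild type. Of these 437 genes, 171 were also lower in the knockout by 0.5 or more and 90 were higher in the knockout by 0.5 or more. Among the 176 that remained near wild type in the knockout, 21 missed the order of strains at some time, which left 155. The same rule turned round found 75 genes raised only by overexpression, and 69 genes met it for lowering by AcmybA loss alone.

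**Figure D1:**
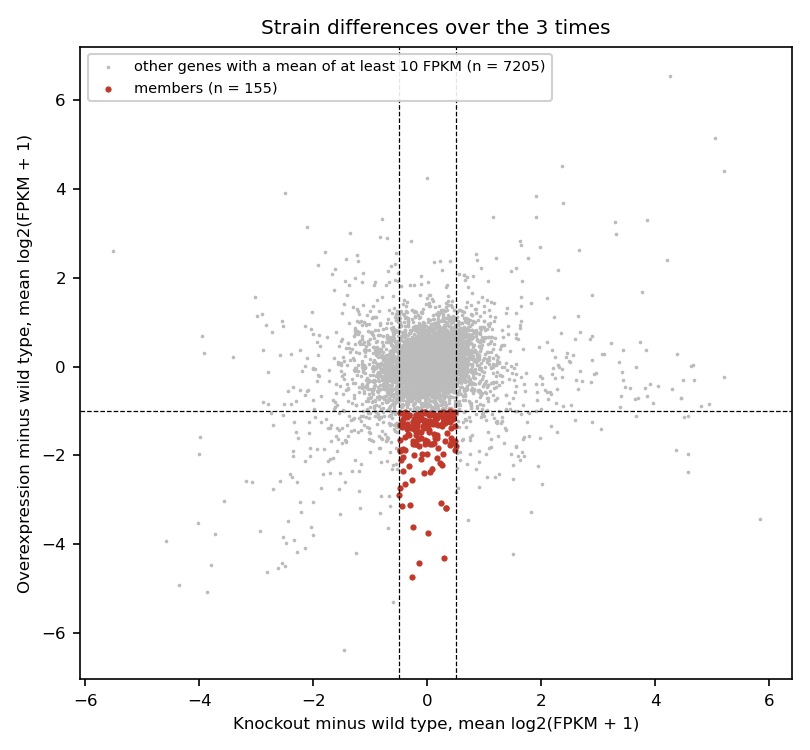
Mean log2(FPKM + 1) in overexpression minus wild type (vertical axis) against knockout minus wild type (horizontal axis) for genes with a mean of at least 10 FPKM, 1 point per gene. The 155 members, in red, lie in the band bounded by the dashed lines at -0.5 and 0.5 in the knockout and below the dashed line at -1 in overexpression.

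The 3 members nearest to the limit were KFH45055.1, KFH42450.1 and KFH41294.1, with overexpression minus wild type of -1.01, -1.02 and -1.02. KFH44333.1, KFH45033.1 and KFH47559.1 met every other condition and fell just outside, at -0.999, -0.998 and -0.998. KFH45055.1 stood at 9.46, 10.7 and 16.4 FPKM in overexpression at 48, 72 and 96 h, against 34.7, 27.8 and 37.2 FPKM in the knockout and 26.6, 29.8 and 19.3 FPKM in wild type. KFH44333.1, outside, had 158, 235 and 257 FPKM in overexpression, 373, 507 and 653 FPKM in the knockout and 273, 594 and 473 FPKM in wild type. Both genes were lowest in overexpression at each time.

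Over the 155 members, the overexpression minus wild-type difference ranged from -4.74 to -1.01 with a median of -1.37, and over all genes with a mean of at least 10 FPKM its median was 0.08. It was -2 or lower for 25 members and above -1.5 for 91, so most members lay near the limit and a short tail was far below it. The knockout minus wild-type difference had a median of -0.05, with 70 members above 0 and 85 below. Their mean level had a median of 33.9 FPKM in overexpression, 119 FPKM in the knockout and 108 FPKM in wild type, while all genes with a mean of at least 10 FPKM had a median of 51.2 FPKM in wild type.

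**Figure D2:**
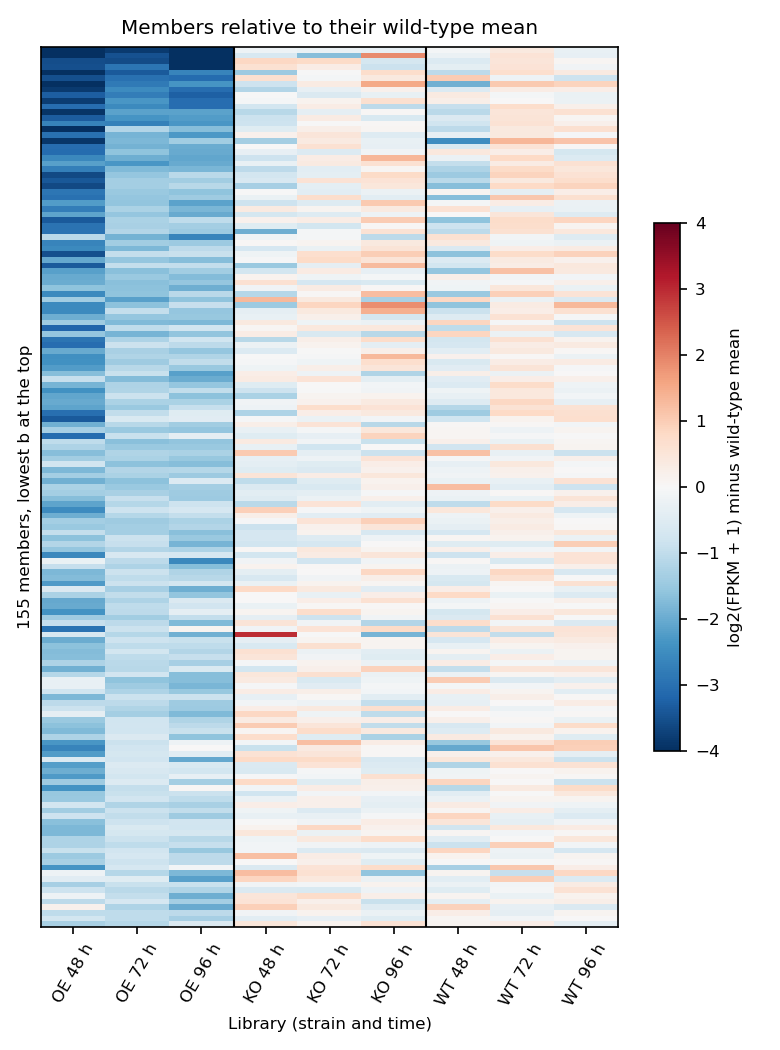
Each row is 1 of the 155 members and each column 1 library, coloured by log2(FPKM + 1) minus the mean of the 3 wild-type libraries of that gene. All but 4 of the overexpression values (OE) lie on the blue side of white, and the knockout (KO) and wild-type (WT) columns scatter on both sides of white; the scale stops at -4 and 4.

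The members took 1.51%, 2.45% and 2.36% of summed FPKM in overexpression at 48, 72 and 96 h. They took 4.62%, 5.64% and 4.99% in the knockout and 4.79%, 6.07% and 6.17% in wild type. The share in each overexpression library was below that in every library of the other strains, and the 48 h overexpression library held the lowest of the 9. Without KFH48957.1, the member with the highest wild-type mean, the shares were 1.18% to 2.23% in overexpression, 3.94% to 4.93% in the knockout and 3.66% to 5.62% in wild type.

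**Figure D3:**
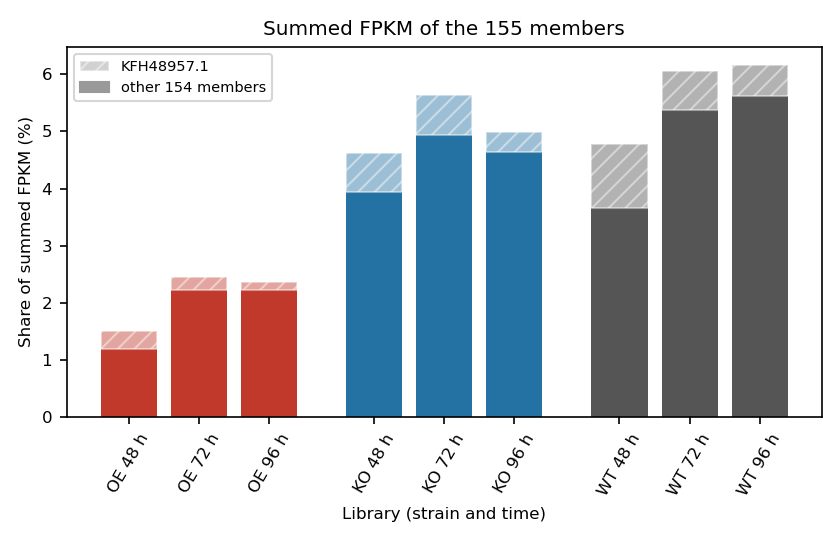
Share of the summed FPKM of each library taken by the 155 members, in percent, with the part of KFH48957.1, the member with the highest wild-type mean, hatched. The 3 overexpression bars (OE) reach 1.51% to 2.45% and the 6 knockout (KO) and wild-type (WT) bars 4.62% to 6.17%.

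KFH46062.1 had the lowest overexpression minus wild-type difference on the log2(FPKM + 1) scale. Its levels at 48, 72 and 96 h were 32.8, 71.8 and 23.3 FPKM in overexpression, 911, 861 and 833 FPKM in the knockout and 983, 1354 and 852 FPKM in wild type. Its highest overexpression value thus lay more than a factor of 10 under its lowest value in the other strains, and its knockout values differed little between times. Its mean log2 difference was -4.74 in overexpression against wild type and -0.27 in the knockout against wild type.

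KFH40951.1 stood at 1.26, 4.40 and 0.801 FPKM in overexpression, 37.5, 17.6 and 221 FPKM in the knockout and 50.4, 86.1 and 46.8 FPKM in wild type. Its knockout values sat below wild type at 48 and 72 h and above it at 96 h, so that only their mean, at -0.14, was close to wild type. Its difference in overexpression was -4.42. With a pseudocount of 0.1 in place of 1 it was -5.06, against -4.77 for KFH46062.1, so the order of these 2 genes depends on the pseudocount. Wild-type over overexpression mean FPKM was 28.3 for KFH40951.1 and 24.9 for KFH46062.1.

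KFH40555.1 and KFH40563.1 had like courses. KFH40555.1 had 15.1, 14.9 and 2.49 FPKM in overexpression, 337, 322 and 116 FPKM in the knockout and 129, 263 and 198 FPKM in wild type. KFH40563.1 stood at 18.0, 27.4 and 6.73 FPKM in overexpression, 333, 263 and 118 FPKM in the knockout and 163, 314 and 197 FPKM in wild type. Both had their lowest overexpression value at 96 h, both were highest in the knockout at 48 h, and both peaked at 72 h in wild type. Their differences in overexpression against wild type were -4.30 and -3.75.

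KFH41508.1 was lowest at 48 h in every strain. It was at 41.6, 117 and 193 FPKM in overexpression, 444, 1209 and 1987 FPKM in the knockout and 593, 1952 and 1544 FPKM in wild type, a difference of -3.61 against wild type. KFH40276.1 was also lowest at 48 h in every strain, at lower levels, with 1.07, 4.84 and 7.19 FPKM in overexpression, 22.4, 51.1 and 119 FPKM in the knockout and 10.2, 84.6 and 75.8 FPKM in wild type. KFH45134.1 had 11.4, 30.1 and 20.5 FPKM in overexpression, 77.5, 141 and 200 FPKM in the knockout and 120, 217 and 212 FPKM in wild type. All 3 genes kept every overexpression value below every value of the other strains.

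KFH43970.1, KFH48934.1 and KFH45625.1 were instead highest at 48 h in wild type. KFH43970.1 stood at 24.3, 35.7 and 33.6 FPKM in overexpression, 450, 276 and 382 FPKM in the knockout and 589, 252 and 163 FPKM in wild type. KFH48934.1 had 105, 155 and 109 FPKM in overexpression, 1035, 705 and 850 FPKM in the knockout and 1340, 998 and 879 FPKM in wild type. KFH45625.1 stood at 35.9, 102 and 61.1 FPKM in overexpression, 493, 576 and 811 FPKM in the knockout and 603, 527 and 436 FPKM in wild type. In overexpression all 3 were highest at 72 h, and the gap to wild type was widest at 48 h. Their differences against wild type over the 3 times were -3.19, -3.11 and -3.07.

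**Figure D4:**
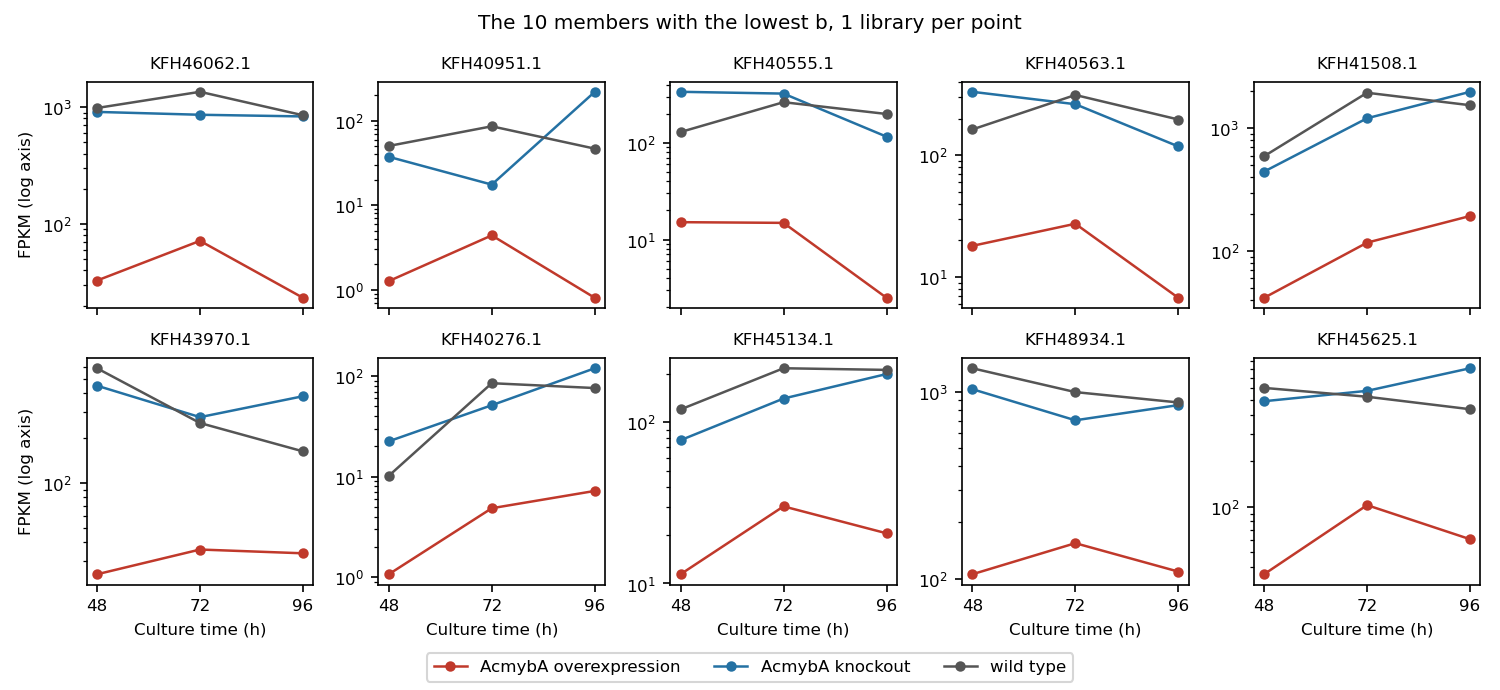
FPKM on a log axis against culture time in hours for the 10 members with the lowest overexpression minus wild-type difference, 1 library per point. In each panel the overexpression line runs below the knockout and wild-type lines at all 3 times.

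None of the 5 members with the highest wild-type means was among these 10, and their differences ran from -1.86 to -1.04. KFH48957.1 had 3692, 2085 and 1247 FPKM in overexpression, 6882, 7341 and 3702 FPKM in the knockout and 11855, 7175 and 5403 FPKM in wild type. It was lower at each later time in overexpression and in wild type, and its overexpression value at 48 h lay just under its knockout value at 96 h. KFH40658.1 stood at 1841, 3005 and 2574 FPKM in overexpression, 4417, 5915 and 4087 FPKM in the knockout and 4399, 5614 and 5576 FPKM in wild type. KFH46784.1 had 477, 674 and 602 FPKM in overexpression, 1891, 3337 and 2777 FPKM in the knockout and 1348, 2520 and 2215 FPKM in wild type. Both kept the overexpression libraries apart from the other 6.

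KFH48541.1 and KFH42802.1, also among these 5, were near the limit at -1.04 and -1.11. KFH48541.1 stood at 1672, 1390 and 1290 FPKM in overexpression, 1959, 1929 and 2572 FPKM in the knockout and 2102, 2774 and 4434 FPKM in wild type, so the gap to wild type was widest at 96 h. KFH42802.1 had 534, 1679 and 1598 FPKM in overexpression, 1619, 3603 and 1663 FPKM in the knockout and 1062, 3735 and 3662 FPKM in wild type. For KFH42802.1 the strains overlap across times, since its overexpression values at 72 and 96 h exceed the wild-type value at 48 h.

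Among the less abundant members, KFH43357.1 was the one listed at 0 in an overexpression library. It was at 0, 7.78 and 5.06 FPKM in overexpression, 13.0, 22.3 and 19.6 FPKM in the knockout and 8.43, 25.0 and 30.0 FPKM in wild type. In overexpression 35, 19 and 25 members were under 10 FPKM at 48, 72 and 96 h, while 4, 0 and 1 were in the knockout and 8, 0 and 0 in wild type. The rule favours this contrast. A member under 10 FPKM throughout overexpression reached the mean of at least 10 FPKM only through the other strains.

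At single times the gap to wild type was at least 1 on the log2 scale for 125 members at 48 h, 114 at 72 h and 122 at 96 h. The gap to the knockout was at least 1 for 132, 106 and 100 members. Median differences were -1.59, -1.35 and -1.38 against wild type and -1.77, -1.25 and -1.43 against the knockout, while all genes with a mean of at least 10 FPKM had medians from -0.01 to 0.12 in these comparisons. The widest gap to wild type fell at 48 h for 73 members, at 72 h for 41 and at 96 h for 41, and the widest gap to the knockout fell at those times for 82, 26 and 47. For 50 members overexpression was at least 1 lower in all 6 comparisons at the same time. The limits of the rule favour such counts of gaps, and all genes were not counted in the same way.

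For 109 of the 155 members every overexpression value lay below all 6 values of the other strains, whatever the time. The rule asks for this order only within a time, and 354 of the 7360 genes (4.81%) met the wider condition. The limits of the rule on order and size favour this wider condition, so the count among members follows in part from the choice. For 25 members the highest overexpression value was also at least 1 lower than the lowest of the others. The rule favours this count too, and all genes were not counted in this way. For the other 46 members the overexpression values overlap those of the other strains across times.

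The rule held the knockout close to wild type as a mean and set no limit at single times. The counts below describe the members and are not read as particular to them, since all genes were not counted in this way. For 114 members the knockout was within 1 of wild type at all 3 times, and for 41 it was at least 1 away at some time. It lay above wild type at all times for 14 members, below at all times for 21, and on both sides for 120. At 48 h the knockout exceeded wild type by at least 1 for 16 members and lay that far below it for 2, while at 96 h these numbers were 8 and 12. The members whose knockout mean was farthest below wild type were KFH40916.1 and KFH45586.1, at -0.50 and -0.49, and those farthest above were KFH44970.1 and KFH41392.1, at 0.50 and 0.49. KFH40916.1 stood at 6.24, 9.31 and 6.26 FPKM in overexpression, 35.1, 73.1 and 28.2 FPKM in the knockout and 31.2, 98.2 and 67.8 FPKM in wild type. KFH44970.1 had 24.7, 149 and 158 FPKM in overexpression, 259, 466 and 586 FPKM in the knockout and 93.0, 486 and 554 FPKM in wild type. The knockout departed from wild type at 96 h in the first of these genes and at 48 h in the second.

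The change with time was not used in the choice of members and was tested. limma fitted strain plus time to all 9 libraries over 8482 genes with at least 1 FPKM in 3 libraries or more, and all 155 members were among them. Between 48 and 96 h, 33 members (21.3%) rose and 5 (3.23%) fell over the 3 strains together at a limma adjusted p under 0.05. Over all tested genes 508 rose (5.99%) and 525 fell (6.19%). Of the 7354 tested genes with a mean of at least 10 FPKM, as the members have, 465 rose (6.32%) and 510 fell (6.9%). The median log2 change was 0.35 for the members and -0.06 for all tested genes. The median standard error was 0.29 for the members and 0.25 for all tested genes. The residual is departure from additive strain and time effects, since no culture was repeated.

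KFH40378.1 had the largest rise, with 1.15, 3.04 and 5.68 FPKM in overexpression at 48, 72 and 96 h, 3.65, 22.2 and 45.0 FPKM in the knockout and 3.13, 15.0 and 30.0 FPKM in wild type (log2 change 2.62, SE 0.35, limma adjusted p = 0.0119). KFH41635.1 stood at 1.36, 9.08 and 12.2 FPKM in overexpression, 12.6, 43.7 and 27.2 FPKM in the knockout and 5.18, 87.1 and 76.5 FPKM in wild type (2.40, SE 0.48, limma adjusted p = 0.0280). KFH40276.1, whose values are given above, rose by 2.38 (SE 0.35, limma adjusted p = 0.0133). Each of these was lowest at 48 h in every strain.

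KFH44339.1 had 3.87, 21.8 and 26.2 FPKM in overexpression, 22.4, 44.3 and 79.2 FPKM in the knockout and 17.2, 101 and 109 FPKM in wild type (log2 change 2.28, SE 0.29, limma adjusted p = 0.0116). KFH42151.1 stood at 38.6, 143 and 245 FPKM in overexpression, 130, 315 and 249 FPKM in the knockout and 58.0, 528 and 468 FPKM in wild type (2.18, SE 0.42, limma adjusted p = 0.0257). By 96 h the overexpression and knockout values of KFH42151.1 were nearly equal, while wild type stayed above both.

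All 5 members that fell had small differences in overexpression against wild type, from -1.28 to -1.02. KFH41968.1 had 352, 130 and 75.5 FPKM in overexpression, 599, 406 and 214 FPKM in the knockout and 581, 249 and 205 FPKM in wild type (log2 change -1.73, SE 0.23, limma adjusted p = 0.0119). KFH41043.1 stood at 38.3, 32.6 and 12.7 FPKM in overexpression, 96.7, 96.3 and 35.2 FPKM in the knockout and 76.4, 74.4 and 30.5 FPKM in wild type (-1.42, SE 0.15, limma adjusted p = 0.00759). In all 3 strains KFH41043.1 changed little by 72 h and dropped by 96 h.

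KFH44003.1 had 13.1, 11.8 and 6.82 FPKM in overexpression, 37.0, 23.3 and 10.8 FPKM in the knockout and 42.5, 23.4 and 16.7 FPKM in wild type, with a log2 change of -1.27. KFH47852.1 stood at 40.3, 15.7 and 14.5 FPKM in overexpression, 63.5, 32.3 and 43.8 FPKM in the knockout and 102, 32.4 and 36.4 FPKM in wild type, with a log2 change of -1.13. KFH44669.1 had 327, 196 and 127 FPKM in overexpression, 863, 640 and 362 FPKM in the knockout and 595, 494 and 403 FPKM in wild type, with a log2 change of -1.06. Their limma adjusted p were 0.0215, 0.0280 and 0.0294.

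The number of members called depends on single libraries. It was 38 with all libraries, 4 without overexpression at 96 h, 7 without the knockout at 96 h, 15 without wild type at 48 h, 18 without wild type at 96 h, 20 without overexpression at 48 h and 23 without wild type at 72 h. The share of all tested genes called dropped as well. It was 12.2% with all libraries and 1.10%, 1.46%, 4.20%, 3.87%, 4.67% and 4.87% in these 6 cases. The number of members that rose was 3, 6, 11, 14, 14 and 20 in these 6 cases. The number of members that fell was 1 without overexpression or the knockout at 96 h and 3 without overexpression or wild type at 72 h. KFH42137.1 and KFH41043.1 were called whichever library was left out, at a log2 change of 2.07 (limma adjusted p = 0.00759) and -1.42 with all libraries, and KFH42137.1 was picked out after its values were seen. In each of the 17 settings run, the one reported here included, the share of members that rose was above the share of all tested genes that rose. The share of members that fell was below that of all tested genes in 12 of these settings and above it in 5.

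The calls of 9 named genes ended without some library. That of KFH40378.1 ended without the knockout at 96 h (limma adjusted p = 0.0532), that of KFH44339.1 without overexpression at 96 h (0.0524), that of KFH40276.1 without the knockout or overexpression at 96 h (0.0577 and 0.0532), and that of KFH41968.1 without the same libraries (0.0514 and 0.0550). KFH42151.1 lost its call without overexpression or wild type at 48 or 96 h (limma adjusted p from 0.0630 to 0.110). KFH41635.1 lost it without any of these libraries or the knockout at 96 h (0.0501 to 0.117). KFH44003.1 lost it without the knockout or overexpression at 96 h or wild type at 48 or 96 h (0.0613 to 0.0837). KFH47852.1 lost it without any library other than the knockout at 48 or 72 h (0.0528 to 0.118). KFH44669.1 lost it without any library other than wild type at 48 or 96 h (0.0504 to 0.126).

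**Figure D5:**
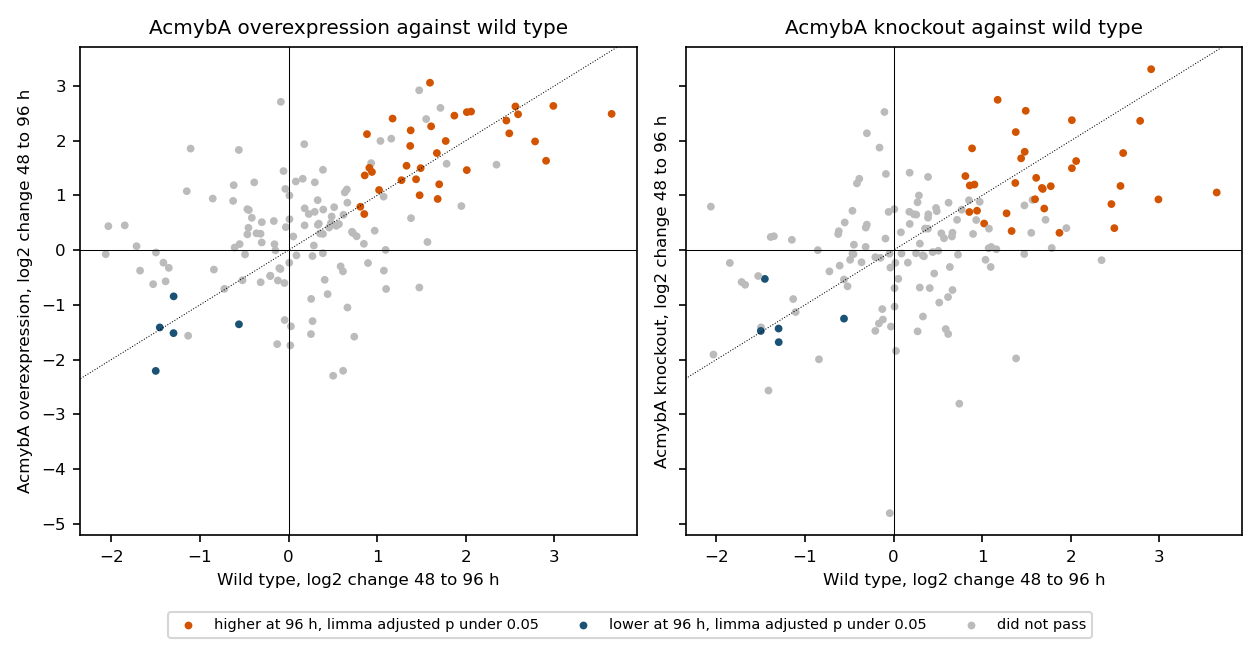
Log2 change from 48 to 96 h of each of the 155 members in overexpression (left) and in the knockout (right), both against wild type on the horizontal axis; the dotted line marks equal change. The 33 members called higher at 96 h (orange) and the 5 called lower (blue) changed in 1 direction in all 3 strains, and the other members scatter on both sides of 0.

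Within each strain the changes have no replicates and are given as counts. All genes were not counted in the same way for each time, so the counts are not read as particular to the members. In overexpression 51 members were at least 1 higher at 72 h than at 48 h and 53 at 96 h, while 3 and 15 were at least 1 lower. In the knockout 23 and 30 members were higher by that much and 7 and 23 lower, and in wild type 49 and 42 were higher and 12 and 17 lower. The members' median change at 72 and 96 h was 0.71 and 0.50 in overexpression, 0.20 and 0.29 in the knockout and 0.46 and 0.36 in wild type. Over all genes with a mean of at least 10 FPKM it was -0.05 and -0.10 in overexpression, -0.09 and -0.10 in the knockout and -0.01 at both times in wild type. Members were highest at 48, 72 and 96 h in 32, 68 and 55 cases in overexpression, in 47, 43 and 65 cases in the knockout and in 42, 62 and 51 cases in wild type.

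Sorting the members by their wild-type course alone gave 33 that were at least 1 higher at both 72 and 96 h than at 48 h (21.3%), where 617 of the 7360 genes did so (8.38%). It gave 10 that were at least 1 lower at both later times (6.45%), where 297 genes did so (4.04%). The other 112 did neither. These 33 are not the same set as the 33 members that rose in the limma test. That test called 25 of them, and 8 of the 112, as rising. Of the 33 higher later in wild type, 23 were also at least 1 higher at both times in overexpression and 11 in the knockout. Their median log2 change from 48 to 96 h was 1.99 in overexpression, 1.12 in the knockout and 1.72 in wild type. Their median overexpression minus wild-type difference was -1.57, -1.88 and -1.78 at 48, 72 and 96 h. For the 10 genes lower later in wild type it was -2.13, -0.96 and -0.99, widest at 48 h. Of these 10, 2 were at least 1 lower at both later times in overexpression and 1 in the knockout. Since these classes use the wild-type libraries that also enter the gaps, the sorting itself partly sets the gaps. How many of the 617 and 297 genes kept their course in the mutants was not counted.

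Whether members changed with time at another rate in overexpression than in wild type was asked with a linear slope for each strain. The rule put overexpression below wild type at each time, which loosely bounds this slope difference. The comparison of members with all tested genes is thus not independent of the choice. No member passed (0 of 155), nor did any tested gene (0% of 8482), and 23 members (14.8%) had an unadjusted limma p under 0.05, against 792 of all tested genes (9.34%). Of these 23 members, 14 had a higher slope in overexpression and 9 a lower one. Of the 792 tested genes, 254 had a higher slope in overexpression and 538 a lower one. Among the 7354 tested genes with a mean of at least 10 FPKM, 743 (10.1%) had an unadjusted limma p under 0.05. The median slope difference was 0.07 per 24 h for the members and -0.04 for all tested genes. The SE of a single member's slope difference had a median of 0.36, so a difference of that size in 1 gene could not be told from 0. This SE is not an error of the median over members. The smallest limma adjusted p among members was 0.427. For the knockout against wild type 0 members and 0% of tested genes passed, with 16 members (10.3%) at an unadjusted limma p under 0.05, against 467 of all tested genes (5.51%). Of the tested genes with a mean of at least 10 FPKM, 408 (5.55%) had such a p. The median slope difference was -0.08 per 24 h for the members and -0.05 for all tested genes. The smallest limma adjusted p among members was 0.691.

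The summed FPKM of a library lay between 852915 and 1124540, and its median gene ran from 37.0 to 41.5 FPKM. Read depth is not stated; compared with wild type at 96 h it was estimated from whole-read steps of genes under 2 FPKM at 1.77 to 2.39 in the overexpression libraries, 0.83 to 2.40 in the knockout libraries and 0.93 to 1 in the wild-type libraries. By this estimate the libraries in which members are low are among the deeper ones, with the knockout at 48 h. The next-best estimates were 1.2 and 1.11 for overexpression at 72 and 96 h and 1.2 for the knockout at 48 h. They were 1.66 to 1.9 for the other knockout libraries and wild type at 48 and 72 h. For overexpression at 48 h it was 3.54. In overexpression at 72 and 96 h, 59.6% and 41.9% of the genes used lay near a whole-read step. The order of depths is thus uncertain, and the part of depth in the differences was not tested. In whole mycelium, fewer cells that make a transcript and less of it per cell cannot be told apart.

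Identifier numbers run without a gap from 40211 to 49109, and 3 pairs of members have consecutive numbers. The first pair is KFH42591.1 and KFH42592.1, the second KFH44379.1 and KFH44380.1 and the third KFH45586.1 and KFH45587.1. KFH45586.1 stood at 226, 791 and 641 FPKM in overexpression, 454, 1682 and 2660 FPKM in the knockout and 855, 2730 and 2405 FPKM in wild type. KFH45587.1 had 57.3, 95.4 and 81.2 FPKM in overexpression, 162, 234 and 277 FPKM in the knockout and 175, 311 and 244 FPKM in wild type. Both were highest at 96 h in the knockout and at 72 h in overexpression and wild type. KFH42591.1 and KFH42592.1 shared the strain difference, at -1.21 and -1.27, but not the course, as wild type was at 102, 276 and 278 FPKM for KFH42591.1 and at 428, 203 and 167 FPKM for KFH42592.1. KFH44379.1 and KFH44380.1 had differences of -1.34 and -1.29, and both were highest at 72 h in wild type. Whether consecutive identifiers are neighbours on a chromosome was not analysed here. The number of pairs to be had from placement alone was not worked out, and the pairs are not read as groups.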

How the data were processed

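The authors' deposited table holds 1 value per gene and library. Its header gives no unit, and the deposited values are read as FPKM from their decimals and their unequal sums per library. The submitters' processing notes name CASAVA (no version) and HISAT2 2.0.5; the build, the annotation and the tool that made the values are not stated there. All 9 columns matched a library by name.

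The members, tests and alternatives were chosen with earlier results of these data known. Values were taken as log2(FPKM + 1). limma 3.58.1 in R 4.3.3, with an intensity trend, tested the 8482 genes that reached 1 FPKM in 3 libraries or more, two-sided, with Benjamini-Hochberg adjustment over all of them and a threshold of 0.05. Strain plus time as factors left 4 residual degrees of freedom, and a slope per 24 h for each strain left 3; the prior added 3.26 and 3.28. The fits and the depth estimate were also run on simulated data. For the fits these held set changes and independent noise around flat levels. For the depth estimate they held the whole-read steps, and the share of genes off a step, that it assumes. Such data do not show how either performs on the libraries here. Alternatives were a pseudocount of 0.1, 3 rescalings, other filters and limits, no intensity trend, linear time, and each library left out.

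Named members are the 10 with the lowest overexpression minus wild-type difference, the 5 most abundant in wild type, the 3 on either side of the limit, up to 5 called in each direction, 2 at each extreme of the knockout, any listed at 0 in overexpression and those with consecutive identifiers. Some of these are given by their differences only.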

Additional observations from a re-analysis of the deposited data

Results flagged for a closer look

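Of the members, 6 moved with time in opposite directions in a mutant and in wild type, by at least 0.5 on the log2 scale at both 72 and 96 h against 48 h. Each strain has 1 library per time, so these contrasts have no replicates, and the test of the slope difference passed for none of them.

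In overexpression, KFH45436.1 was higher at 72 and 96 h than at 48 h by 1.53 and 0.94, against -0.90 and -0.86 in wild type (limma adjusted p = 0.561 for the slope difference). KFH44612.1 changed by 1.23 and 1.19 in overexpression, against -0.57 and -0.62 in wild type (limma adjusted p = 0.493). KFH47248.1 changed by 0.83 and 0.90 in overexpression, against -0.86 and -0.63 in wild type (limma adjusted p = 0.524). These 3 were lowest at 48 h in overexpression and highest at 48 h in wild type. KFH45210.1 went the other way, by -0.82 and -1.05 in overexpression, against 0.74 and 0.67 in wild type (limma adjusted p = 0.535).

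In the knockout, KFH47465.1 changed by -0.61 and -0.96, against 0.67 and 0.52 in wild type (limma adjusted p = 0.844). For KFH43083.1 the knockout changes were -0.52 and -1.98, against 0.55 and 1.38 in wild type (limma adjusted p = 0.691).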

How the results depend on the processing

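The number of members was 80 with the knockout mean held within 0.25 of wild type and 64 with a difference of -1.5 or lower in overexpression, both stricter by construction. It was 162 with a pseudocount of 0.1, 169, 120 and 149 after median-of-ratios, equal-total and quantile rescaling, and 179 with a mean of at least 1 FPKM, and 104 members stayed under that pseudocount and all 3 rescalings. Leaving out 1 library gave 142 to 187 genes, of which 98 to 152 were among the 155, and 33 members stayed whichever library was left out. Of the 10 leading members 4 stayed (KFH46062.1, KFH40563.1, KFH48934.1 and KFH45625.1), and the other 6 kept differences of -2.60 or lower. In these cases the strain that lost a library was averaged over its remaining times, and the other strains over all 3. A member that changes with time can leave the list for that reason. The count of 33 thus does not measure how far the gaps within a time rest on 1 library.

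Leaving out 1 library, members called for time numbered 4 to 39, with 3 to 35 rising and 1 to 6 falling. Of all tested genes 1.10% to 11.7% were then called. The other alternatives gave 29 to 42 members and 8.92% to 11.8% of all tested genes. Slope differences were called for 0 members in every alternative. With linear time KFH41635.1 and KFH47852.1 were no longer called for time (limma adjusted p = 0.0653 and 0.0782), and with equal totals KFH44003.1 was not (0.0528); the cause was not tested. Absolute read depth is unknown, so no counting error can be given for low values, and no spread between cultures was measured.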

Other observations

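In 7 members the knockout was at least 1 above wild type on the log2 scale at one time and at least 1 below it at another, so that its mean over the times hides opposite departures. KFH45361.1 had levels at 48, 72 and 96 h of 25.9, 18.3 and 10.1 FPKM in overexpression, 324, 41.1 and 10.6 FPKM in the knockout and 59.5, 20.2 and 57.7 FPKM in wild type. KFH46364.1 stood at 26.8, 13.6 and 8.28 FPKM in overexpression, 73.9, 47.6 and 9.70 FPKM in the knockout and 33.4, 15.8 and 56.5 FPKM in wild type. For both genes the knockout was lower at each later time and close to overexpression at 96 h, where wild type was above both. KFH42859.1 went the other way, with the knockout below wild type at 48 h and above it at 96 h, at 15.6, 13.4 and 14.8 FPKM in overexpression, 25.8, 25.6 and 45.5 FPKM in the knockout and 94.3, 28.7 and 21.8 FPKM in wild type. KFH40951.1, KFH41635.1, KFH47385.1 and KFH43083.1 complete the 7, and these genes were picked out after their values were seen. All genes were not counted in this way.

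Allowing up to 3 between the numbers of neighbouring identifiers, a distance chosen after the data were seen, 21 members fell into 9 runs, of which 3 hold 3 members. The number of runs to be had from placement alone was not worked out. In the run KFH44379.1, KFH44380.1 and KFH44382.1 the gene left out, KFH44381.1, had levels of 2.23, 58.3 and 73.4 FPKM in overexpression, 30.2, 9.60 and 24.4 FPKM in the knockout and 15.8, 47.2 and 49.4 FPKM in wild type, and overexpression was the highest strain at 72 and 96 h. In the run KFH45586.1, KFH45587.1 and KFH45589.1 the gene left out, KFH45588.1, had a mean overexpression minus wild-type difference of -0.41. In the run KFH45625.1, KFH45628.1 and KFH45631.1, 4 genes were left out. KFH45626.1, KFH45627.1 and KFH45629.1 had overexpression minus wild-type differences of -0.22, -0.48 and 0.15. KFH45630.1 had differences from wild type of -1.19 in overexpression and 0.67 in the knockout, and the knockout value kept it off the list.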
